A study of Homo sapiens with 6 samples.

Results

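The genes described here encode 7 matrix metalloproteinases (MMPs) and 3 tissue inhibitors of metalloproteinases (TIMPs), which are MMP1, MMP2, MMP3, MMP14, MMP15, MMP16, MMP17, TIMP1, TIMP2 and TIMP3. They were chosen by gene symbol, as proteases and inhibitors linked to invasion, from a table of 57773 genes. The counts of the same 6 libraries, and the differences between Apatinib and control computed from them, were known when they were chosen, so those differences are described for these 10 genes and not tested. The cells were SW872, a human line derived from a liposarcoma, and their RNA was sequenced in 3 replicates treated with Apatinib (18 μM for 24 h), an inhibitor of the VEGFR-2 receptor tyrosine kinase, and in 3 untreated control replicates. All 6 libraries came from cells cultured in RPMI-1640 medium with serum, and the study calls the 3 replicates of a group biological. A treatment note attached to the control libraries repeats the Apatinib treatment, but their titles and treatment labels call them untreated controls.

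MMPs are zinc-dependent proteases that cut collagens, fibronectin, proteoglycans and other proteins around the cell. Most are made as inactive precursors, in which a cysteine of the propeptide holds the catalytic zinc (the cysteine switch). Some are secreted, and the membrane-type enzymes stay at the cell surface through a transmembrane segment or a lipid (GPI) anchor. TIMPs bind the active site and block it. MMP14 and TIMP2 together also take part in activating the precursor of MMP2 at the surface of stromal and sarcoma cells.

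The coding sequence shows what joins the MMP members. In the cysteine switch it also shows where MMP17, the member with the largest difference, departs from the other members printed. MMP16 is not printed. The sequences below are those of the zinc-binding site, read 5′ to 3′ from the longest coding transcript of each gene in GENCODE release 29, with the codons of its histidines and of its catalytic glutamate in capitals.
MMP1: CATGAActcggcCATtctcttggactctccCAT
MMP3: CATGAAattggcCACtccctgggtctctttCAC
MMP2: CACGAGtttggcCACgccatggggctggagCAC
MMP14: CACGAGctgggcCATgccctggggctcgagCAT
MMP15: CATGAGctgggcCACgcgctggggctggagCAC
MMP17: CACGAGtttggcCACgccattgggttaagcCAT

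These 33 bases cover codons 218 to 228 of MMP1, 403 to 413 of MMP2, 239 to 249 of MMP14 and 248 to 258 of MMP17. The zinc-binding motif, searched in frame, was found once in each of the 7 MMP members, MMP16 included, and in 61 of 19484 coding genes (0.313%). It was absent from the coding sequences of the 3 TIMPs. MMP14 and MMP15 shared 28 of the 33 bases (84.8%), and the secreted MMP2 shared as many with MMP15 and 27 with MMP14. MMP17 shared 23 with MMP14, 21 with MMP15, 26 with MMP2 and 20 each with MMP1 and MMP3. The lowest number among the pairs of printed sequences was 18, for MMP1 with MMP2. The cysteine switch is shown next, with the cysteine codon in capitals, because the codons after it differ in MMP17.
MMP1: cccagaTGTggagtgcctgat
MMP3: cccaggTGTggagttcctgat
MMP2: ccacgcTGCggcaacccagat
MMP14: ccccgaTGTggtgttccagac
MMP15: ccccgcTGTggggtgccagac
MMP17: ccacgcTGCtccctgccagac

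In MMP1, MMP2, MMP3, MMP14 and MMP15 the cysteine codon is followed by a glycine codon. In MMP17 it is followed by tcc, a serine codon. The switch spans codons 108 to 114 in MMP17 and 91 to 97 in MMP14. The motif searched was a proline, an arginine and the cysteine codon, any pair of codons, then a proline and an aspartate codon. It was found in 23 coding genes (0.118%).

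The total counts were between 17043314 and 22067558 per library, and the 10 genes took between 0.231% and 0.307% of them. Counts were scaled by edgeR's TMM method to CPM, a gene's count relative to the effective total of its library, which compares a gene between libraries. The deposited FPKM values, by their name scaled for transcript length and library size, were used to compare genes with each other. FPKM and counts were not always proportional. CD68 had up to 11.8 FPKM with at most 1 count, and CEBPA had 0.0579 to 0.319 FPKM with no counts, so both measures may not come from the same counting. Control replicates 1 and 2 resembled each other more than the other pairs within a group. Their chi-square averaged 2.27 over genes, against 18.2 to 44.5 in those pairs, where sampling noise alone gives about 1. Of the 6 mesenchymal markers, VIM, FN1 and PDGFRB had 881 to 1263, 273 to 440 and 26.8 to 40.8 FPKM, and COL1A2, COL1A1 and THY1 were lower, with 4.79 to 7.16, 3.49 to 4.57 and 1.02 to 1.81 FPKM. Of the 6 adipocyte markers, PPARG had 19.7 to 27.1 FPKM, LPL had 187 to 416 counts and PLIN1 14 to 30 counts, and CEBPA, FABP4 and ADIPOQ had no counts in the 6 libraries. The summed FPKM of the 3 endothelial markers found in the table was between 0.356 and 0.538, and the leukocyte marker PTPRC had no counts. The summed FPKM of the 4 leukocyte markers was 1.87 to 3.39 in the control and 6.90 to 11.9 with Apatinib, almost all of it from CD68. Of the 4 epithelial markers, EPCAM, CDH1 and KRT5 had at most 7 counts in a library, and KRT18 had 1068 to 1526. The summed FPKM of the 6 mesenchymal markers was 1201 to 1310 in the control and 1487 to 1688 with Apatinib. The part of these markers in the results below was not tested. As the RNA is that of a whole culture, a change in some of the cells cannot be told apart from a change in all of them.

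Per length of transcript, each of the 3 inhibitors was more abundant than each of the proteases, TIMP1 by the widest margin. In the control, the mean FPKM was 344 ± 50.0 (SD, n = 3) for TIMP1, 141 ± 7.77 for TIMP2 and 141 ± 3.49 for TIMP3. MMP14 followed with 75.4 ± 4.42 FPKM and MMP2 with 52.2 ± 3.06 FPKM. The other proteases were at least an order of magnitude lower, with 4.59 ± 0.176 for MMP15, 4.23 ± 0.0875 for MMP1, 1.21 ± 0.104 for MMP17, 0.261 ± 0.0474 for MMP16 and 0.0877 ± 0.0175 for MMP3. Among the 16290 genes that passed the filter on low counts, TIMP1 was above 99.4% in mean FPKM over the 6 libraries, MMP14 above 96.5%, MMP17 above 34.8% and MMP16 above 2.91%. Of the 9 neighboring pairs in the control order, 8 did not overlap in their 3 values, and the exception was TIMP2 with TIMP3.

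**Figure D1:**
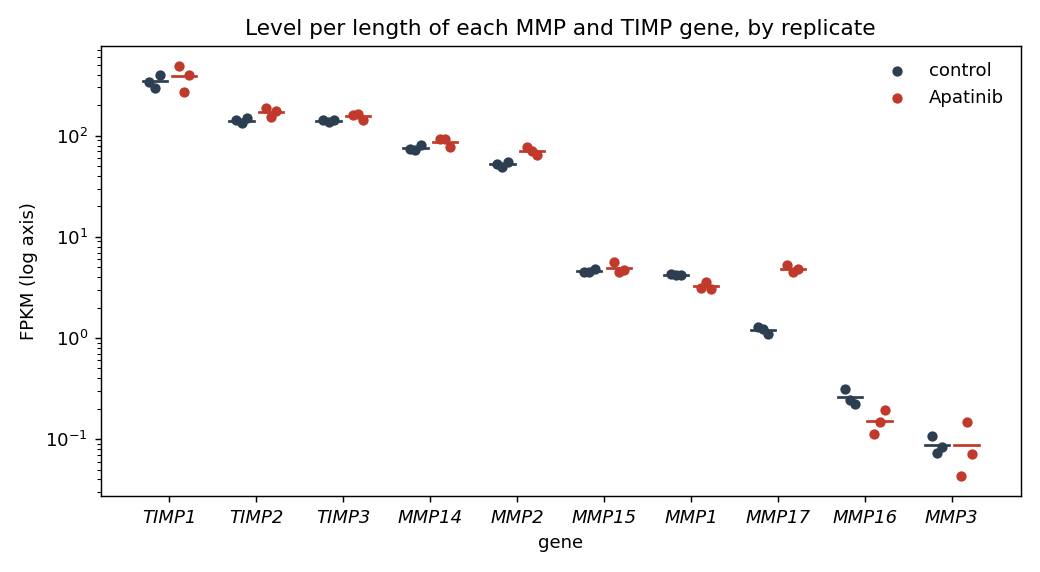
FPKM (log axis) of the 10 genes, with the 3 control replicates in dark and the 3 Apatinib replicates in red, and a line at each group mean. The 3 TIMP genes lie above the MMP genes in both groups, and MMP17 moves from 1.21 to 4.82 FPKM, level with MMP15.

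With Apatinib the order of the mean FPKM was the same except that MMP17 (4.82 ± 0.398, SD, n = 3) stood above MMP1 (3.26 ± 0.277). MMP17 then overlapped with its neighbor MMP15 (4.94 ± 0.580 FPKM), whereas in the control MMP15 had been between 3.49 and 4.38 times higher than MMP17 within a replicate. Of the 9 neighboring pairs, 5 did not overlap with Apatinib. TIMP2 with TIMP3, MMP14 with MMP2, MMP15 with MMP17 and MMP16 with MMP3 did.

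Of the 10 genes, 9 passed the filter on low counts and MMP3 did not. The differences were fitted with edgeR's quasi-likelihood method over all 16290 genes. The standard errors given below were worked out from the log2 fold change and the F statistic of that fit. A gene was called differentially expressed (DEG) at an FDR, its Benjamini-Hochberg adjusted p value, under 0.05 together with a log2 fold change (log2FC, Apatinib over control) beyond 0.5 in either direction. Of the 9 fitted members, 7 were higher with Apatinib (50.3% of all genes tested) and 2 were lower (49.7%). Their median log2FC was 0.16 (0.067 to 0.28 with 1 replicate left out), against 0.0028 over all genes. Read from that fit as a label and not as a test of these genes, MMP17 (higher) and MMP16 (lower) met the DEG criteria. The background was 1866 of 16290 genes (11.5%), of which 973 were higher (5.97%) and 893 lower (5.48%). The FDR limit alone was passed by 12.9% of the genes tested and by 3 of the 9 members, the third being MMP2, and an unadjusted p value under 0.05 was found for 30.6%. In 4 of the 9 members (MMP1, MMP2, MMP16 and MMP17) no CPM value of one group overlapped with the other, against 33.2% of all genes tested. These counts describe genes chosen with this comparison in view, and nothing is read from them.

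**Figure D2:**
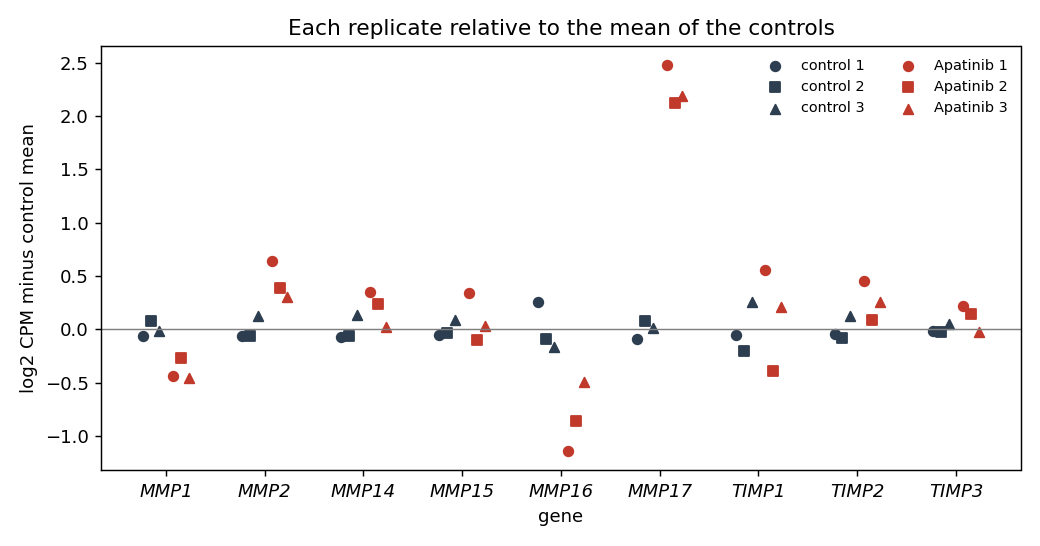
Log2 CPM of each replicate minus the mean log2 CPM of the 3 controls, for the 9 members that passed the filter on low counts. Dark symbols are controls, red symbols are Apatinib, and the shape gives the replicate number. MMP17 stands more than 2 log2 units above the controls in each Apatinib replicate, and the red symbols of TIMP1 spread from below to above the controls.

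The membrane-type proteases held the largest difference among the 9 fitted members in each direction. MMP17 (ENSG00000198598), a membrane-type MMP held by a GPI anchor, was counted 265, 214 and 221 times in Apatinib replicates 1 to 3, but 45, 53 and 61 times in control replicates 1 to 3. In CPM these were 15.4, 12.1 and 12.7 against 2.60, 2.91 and 2.79. The lowest Apatinib replicate was thus about 4 times the highest control, and the spread within either group was small, with a coefficient of variation of 13.3% and 5.78%. The log2FC of MMP17 was 2.27 (standard error 0.184), a 4.82-fold difference, and it was larger than that of 99.9% of the genes tested. It lay between 2.16 and 2.34 when 1 replicate was left out.

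The size of the MMP17 difference depended on the unit. In FPKM, the treated replicates had 5.24, 4.45 and 4.76 and the untreated ones 1.30, 1.24 and 1.09, so that the ratio of the means was 3.98. The FPKM obtained per CPM was between 0.340 and 0.376 in the Apatinib replicates and between 0.392 and 0.499 in the control replicates, so FPKM and CPM were not proportional for MMP17. For MMP2, MMP14, TIMP1, TIMP2 and TIMP3 the FPKM per CPM had overlapping ranges in the 2 groups, for example 0.179 to 0.193 and 0.182 to 0.194 for MMP2. How the FPKM values were computed is not given in the sources used here.

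MMP16 (ENSG00000156103) encodes a transmembrane MMP that can process the MMP2 precursor. Few reads fell on it. The treated replicates had 32, 40 and 51 counts and the untreated ones 85, 70 and 80, or 1.86, 2.26 and 2.92 CPM against 4.91, 3.85 and 3.66 CPM. The values of the groups did not overlap, although Apatinib replicate 3 came close to control replicate 3. The log2FC was -0.81 (standard error 0.243), that is 1.76-fold lower with Apatinib. The DEG label of MMP16 was lost in 6 of the 12 alternative fits that included it, which were DESeq2, the fit with controls 1 and 2 summed, and the fits without Apatinib replicate 1 (log2FC -0.67), Apatinib replicate 2 (-0.78), control replicate 1 (-0.68) or control replicate 2 (-0.86).

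MMP14 (ENSG00000157227), the most abundant MMP here and the main activator of the MMP2 precursor, had 510, 472 and 406 CPM with Apatinib and 382, 383 and 440 CPM in the control. Apatinib replicate 3 lay within the range of the controls. Its log2FC was 0.20 (standard error 0.129), and it was 0.13 without Apatinib replicate 1 and 0.29 without Apatinib replicate 3. MMP15 (ENSG00000102996), a transmembrane MMP related to MMP14, had 35.2, 26.0 and 28.4 CPM against 26.8, 27.3 and 29.5 CPM. Its log2FC of 0.10 was smaller than its standard error of 0.145, and it was -0.03 without Apatinib replicate 1, the replicate with the highest value, and 0.20 without Apatinib replicate 2, the lowest. In the summed FPKM of the 4 membrane-type members, MMP14 took between 92.4% and 92.9% in the control and between 88.9% and 91.0% with Apatinib. MMP17 took between 1.26% and 1.62% in the control and between 4.41% and 5.49% with Apatinib.

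Of the secreted proteases, MMP2 (ENSG00000087245), a gelatinase that cuts denatured and basement membrane collagen, had 436, 365 and 346 CPM with Apatinib and 269, 268 and 305 CPM in the control. The groups did not overlap, and the log2FC was 0.45 (standard error 0.129), a 1.36-fold difference. This was under the limit of 0.5, which MMP2 passed without Apatinib replicate 3 (0.52) and without control replicate 3 (0.51), where it took the DEG label. MMP1 (ENSG00000196611), the interstitial collagenase, had 7.10, 7.96 and 6.98 CPM with Apatinib and 9.18, 10.1 and 9.48 CPM in the control. Every Apatinib value was below every control value, and the log2FC was -0.38 (standard error 0.160), or 1.31-fold lower. MMP3 (ENSG00000149968), stromelysin-1, was counted 2, 7 and 3 times in treated and 5, 4 and 6 times in untreated replicates, too few to pass the filter on low counts, and no difference is given. MMP2 and MMP14 together made up between 91.8% and 92.9% of the summed MMP FPKM in the 6 libraries.

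Among the inhibitors, TIMP1 (ENSG00000102265) varied most between replicates. It had 634, 330 and 498 CPM with Apatinib and 416, 376 and 514 CPM in the control, so that Apatinib replicate 1 lay above the controls and Apatinib replicate 2 below them. Its coefficient of variation was 31.3% with Apatinib and 16.4% in the control. The log2FC of 0.16 was smaller than its standard error of 0.209, and became -0.07 when Apatinib replicate 1 was left out and 0.38 when Apatinib replicate 2 was. TIMP2 (ENSG00000035862), which binds MMP14 and the MMP2 precursor, had 725, 563 and 633 CPM with Apatinib and 514, 500 and 576 CPM in the control, and its log2FC was 0.27 (standard error 0.131), or 0.18 without Apatinib replicate 1 and 0.36 without Apatinib replicate 2. Apatinib replicate 2 overlapped with control replicate 3 in CPM. TIMP3 (ENSG00000100234), which is held in the matrix, had 864, 823 and 734 CPM against 734, 730 and 769 CPM. It was the steadiest member in the control, with a coefficient of variation of 2.89%, and its log2FC was 0.12 (standard error 0.118). This became 0.067 without Apatinib replicate 1 and 0.18 without Apatinib replicate 3.

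**Figure D3:**
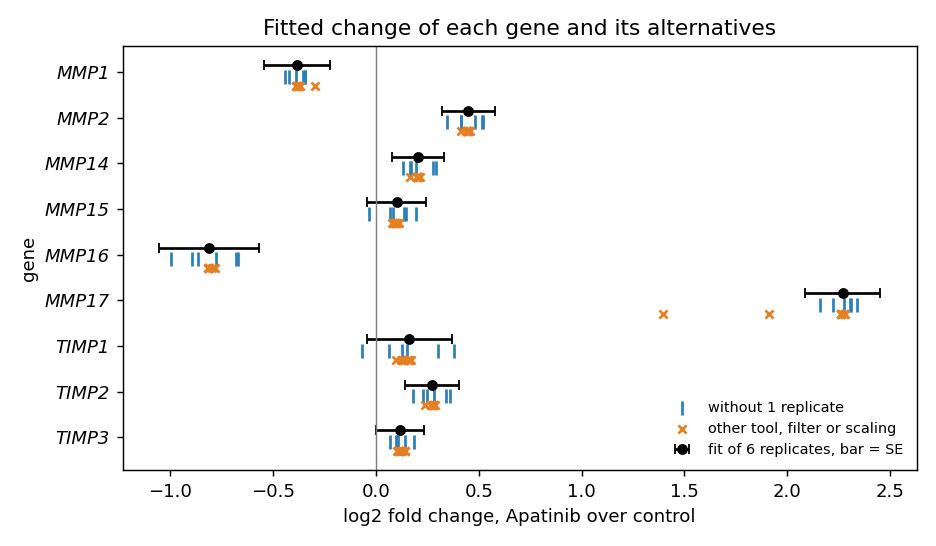
Log2FC (Apatinib over control) of the 9 fitted members. Black points are the fit of the 6 replicates with its standard error, blue ticks are the fits that each left out 1 replicate, and orange crosses are other tools, filters or scalings. MMP17 stays above 1.3 and MMP16 below -0.6 in the fits shown, and MMP15 and TIMP1 cross 0 in 1 fit each.

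The sum of the MMP members was between 131 and 146 FPKM in the control and between 155 and 184 FPKM with Apatinib, without overlap. The sum of the TIMP members was between 567 and 687 FPKM in the control and between 591 and 834 FPKM with Apatinib. The TIMP sum was 4.58, 4.32 and 4.70 times the MMP sum in control replicates 1 to 3 and 4.53, 3.37 and 4.64 times in Apatinib replicates 1 to 3. Apatinib replicate 2, with its low TIMP1, stood apart, and the other Apatinib replicates lay within the range of the controls.

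The profile of MMP17 over the 6 libraries was most like those of CYR61, SCD and CTGF. Likeness was the root mean square difference between log2 CPM profiles centered on their means, which was 0.0923, 0.113 and 0.167 log2 units. CYR61 and CTGF encode matricellular proteins known as targets of YAP/TEAD, and SCD encodes stearoyl-CoA desaturase. Their log2FC values were 2.15, 2.12 and 2.22 for CYR61, SCD and CTGF, and values near that of MMP17 follow from choosing them by likeness. The profiles nearest to MMP16 were those of RP3-323P13.2, SPACA6P-AS and TUBD1, at 0.0744, 0.0858 and 0.0858 log2 units. For MMP14 they were YKT6, CMTR1 and CCDC106, at 0.0150 to 0.0202, and for TIMP1 they were LRRC3, CD248 and SYT5, at 0.0404 to 0.0446. With 6 libraries, 3 of them from each group, a like profile is a description of these values.

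The genes beside the members on their chromosomes were also compared, using the 2 nearest tested genes on each side in the RefSeq gene order, with the members themselves passed over, so that MMP1 and MMP3 had the same neighbors. Of 36 such neighbors, 2 were DEGs (5.56%, background 11.5%). Both were neighbors of MMP1 and MMP3 and fell. They were TMEM123 (log2FC -0.69 at an edgeR FDR of 0.0238) and DYNC2H1 (log2FC -0.79 at an edgeR FDR of 0.0271). Of the neighbors of MMP17 none was a DEG. RAN, SFSWAP, ULK1 and PUS1 had log2FC values of -0.25, -0.01, 0.10 and 0.14, with edgeR FDR values between 0.281 and 0.944. The other genes of the MMP cluster that holds MMP1 and MMP3 (MMP7, MMP8, MMP10, MMP12, MMP13, MMP20 and MMP27) had between 0 and 7 counts in each library and were not tested. In GENCODE 29 exons of MMP1 and MMP3 overlap WTAPP1, those of MMP2 overlap AC007336.3 (not analysed here), those of MMP16 overlap AC090578.1 and those of TIMP2 overlap CEP295NL and AC022966.1. The overlapping genes with counts had at most 1 per library, except CEP295NL with 6 to 19, and how reads shared between genes were counted is not given in the sources used here.

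Promoter sequences from RefSeq (GRCh38.p14, 250 bases before to 50 after the start) were found for MMP14, MMP15, TIMP1 and TIMP3. Those of the protease and the inhibitor with the highest mean FPKM are printed to show which of the letters searched they hold. Matches to GGGCGG (the GC box) and to TGAGTAA on either strand are in capitals. The first is chr14:22836335-22836634 and the second chrX:47582186-47582485, both on the plus strand.
MMP14: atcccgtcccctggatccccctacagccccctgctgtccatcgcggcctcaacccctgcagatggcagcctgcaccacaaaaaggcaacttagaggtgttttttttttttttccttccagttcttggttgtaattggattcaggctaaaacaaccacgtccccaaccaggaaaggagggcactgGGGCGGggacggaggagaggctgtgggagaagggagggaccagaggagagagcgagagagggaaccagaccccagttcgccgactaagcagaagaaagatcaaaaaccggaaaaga
TIMP1: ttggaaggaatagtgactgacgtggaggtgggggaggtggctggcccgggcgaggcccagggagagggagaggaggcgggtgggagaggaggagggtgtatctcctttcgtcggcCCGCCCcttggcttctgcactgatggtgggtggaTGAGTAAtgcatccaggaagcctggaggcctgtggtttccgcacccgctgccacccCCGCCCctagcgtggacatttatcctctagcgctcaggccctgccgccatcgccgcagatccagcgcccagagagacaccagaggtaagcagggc

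The window of TIMP1 held TGAGTAA, a variant of the AP-1 site, starting 101 bases before the gene's start. It was found in 2.57% of 35116 promoter windows of the same length, and in those of MMP14, MMP15 and TIMP3 it was not found. The full AP-1 letters TGANTCA, present in 7.71% of windows, and the TATA box letters TATAAA, present in 11.5%, were found in none of the 4 windows. The GC box, present in 45% of windows, had 1 match for MMP14, 2 for TIMP1 and 5 each for MMP15 and TIMP3. The windows differed in base composition, from 55.0% G and C for MMP14 to 75.3% for MMP15.

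AP-1 and ETS factors are known to bind the promoters of several MMP and TIMP genes. The list used here was chosen with earlier results of these data known. It held FOS and JUN genes and, of the ETS family, ETS1 and ETS2 alone. Of its 9 genes, all tested, 5 rose with Apatinib, none fell and 4 did not pass the test (55.6% DEGs, against 11.5% of all genes). The median log2FC was 0.68. Levels of the genes on this and the following lists are mean CPM ± SD of 3 replicates. FOSB rose from 0.436 ± 0.0967 to 6.18 ± 3.19 CPM (log2FC 3.80 at an edgeR FDR of 0.00148). FOS rose from 1.89 ± 0.246 to 18.2 ± 7.53 CPM (log2FC 3.25 at an edgeR FDR of 0.000315), and JUND from 84.5 ± 13.9 to 154 ± 23.5 CPM (log2FC 0.87 at an edgeR FDR of 0.00845). FOSB, FOS and JUND were DEGs in 13 of 13, 14 of 14 and 11 of 14 alternative fits. Over these fits the log2FC of FOSB ranged from 1.05 to 4.08 and that of FOS from 2.13 to 3.43. The list held 2 DEGs without control replicate 1 and 3 without control replicate 2 or with both summed as 1 sample. Over all genes tested, these 3 fits gave 275, 300 and 292 DEGs, against 1866 with all replicates.

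Of 17 further genes, the other MMPs and TIMP4, 6 passed the filter on low counts, all of them MMPs. Of these, 2 rose, 1 fell and 3 did not pass the test (50% DEGs, against 11.5% of all genes), and the median log2FC was 0.57. MMP28 (epilysin) rose from 0.739 ± 0.0923 to 2.44 ± 0.897 CPM (log2FC 1.72 at an edgeR FDR of 0.0134). MMP25, the other MMP with a GPI anchor, rose from 2.64 ± 0.979 to 5.16 ± 0.451 CPM (log2FC 0.95 at an edgeR FDR of 0.0381). MMP9, the second gelatinase beside MMP2, fell from 5.07 ± 0.618 to 2.49 ± 0.702 CPM (log2FC -1.02 at an edgeR FDR of 0.0244). MMP11, MMP19 and MMP24, which did not pass the test, had log2FC values of 0.66, 0.48 and -0.25. No gene of this list was a DEG without control replicate 1, without control replicate 2, with these controls summed as 1 sample or with limma on log2(FPKM + 0.1), and 1 was with limma on log2(FPKM + 1). MMP28, MMP25 and MMP9 were DEGs in 9, 6 and 10 of 14 alternative fits, with log2FC values from 0.61 to 1.95, from 0.32 to 1.29 and from -1.18 to -0.63.

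Of 16 genes that activate, anchor, bind or clear MMPs, 2 rose, 1 fell and 13 did not meet the DEG criteria (18.8% DEGs, near the 11.5% of all genes, with a median log2FC of 0.19). PCSK5, a proprotein convertase, had a log2FC of 0.82 at an edgeR FDR of 0.0147, and LRP1, a receptor that takes up MMPs and complexes of TIMPs, 0.55 (edgeR FDR = 0.0175). ITGAV, an integrin subunit, had -0.56 (edgeR FDR = 0.0486). CD44, which can hold MMPs at the cell surface, passed the FDR limit and missed the fold limit (log2FC 0.46 at an edgeR FDR of 0.0425). The log2FC of PCSK5 lay between 0.53 and 1.04 over the alternative fits. This list held 0 DEGs without control replicate 1, without control replicate 2 or with both summed as 1 sample, 1 without Apatinib replicate 2 and 5 without Apatinib replicate 3.

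Among the related families, 2 of 11 tested ADAM proteases were DEGs (18.2%, near the 11.5% of all genes, with a median log2FC of 0.10). ADAM33 rose (log2FC 1.00 at an edgeR FDR of 0.0456), and ADAM9, a sheddase, fell (log2FC -0.59 at an edgeR FDR of 0.0491). Of 15 tested ADAMTS proteases, 4 rose, 1 fell and 10 did not pass the test (33.3% DEGs, against 11.5% of all genes, with a median log2FC of 0.31). ADAMTS2, which trims procollagen, rose from 6.09 ± 0.235 to 12.1 ± 1.45 CPM (log2FC 0.99 at an edgeR FDR of 0.00734). ADAMTS16 and ADAMTS13 rose by 0.82 and 0.70 on the log2 scale (edgeR FDR = 0.0273 and 0.0387). ADAMTS9, which cuts proteoglycans, had log2FC -0.62 at an edgeR FDR of 0.0271. Without control replicate 1, without control replicate 2 or with both summed as 1 sample, the ADAM list held 0 DEGs and the ADAMTS list 1. The same counts were found without Apatinib replicate 1 for the ADAM list and without Apatinib replicate 3 for the ADAMTS list. With limma on either FPKM scale both lists held 0 DEGs. Over the alternative fits the log2FC ranged from 0.33 to 1.20 for ADAM33, from 0.55 to 1.09 for ADAMTS2, from 0.44 to 1.05 for ADAMTS16, from 0.35 to 0.87 for ADAMTS13 and from -0.73 to -0.38 for ADAMTS9.

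Of 15 tested matrix substrates, 5 rose, 1 fell and 9 did not meet the DEG criteria (40% DEGs, against 11.5% of all genes), with a median log2FC of 0.45. Of the 9, COL4A1, COL5A1, COL1A2 and FN1 passed the FDR limit and missed the fold limit, with log2FC values between 0.44 and 0.48 at an edgeR FDR between 0.0255 and 0.0473. COL3A1 rose from 4.13 ± 0.548 to 9.38 ± 2.26 CPM (log2FC 1.18 at an edgeR FDR of 0.00955), COL5A2 by 0.87 (edgeR FDR = 0.00478) and COL6A2 by 0.63 (edgeR FDR = 0.0150). VCAN, the proteoglycan versican, fell from 39.8 ± 7.49 to 20.2 ± 3.91 CPM (log2FC -0.97 at an edgeR FDR of 0.0104). The substrates that MMP1 and MMP14 are best known for are COL1A1 and COL1A2. COL1A1 had log2FC -0.08 at an edgeR FDR of 0.740. The log2FC of COL3A1 ranged from 0.54 to 1.32 over the alternative fits. The list held 1 DEG without control replicate 1, 2 without control replicate 2 or with both summed as 1 sample, and 10 without Apatinib replicate 3. Over the 7 lists that were fitted, 25 of 81 tested genes were DEGs, 20 higher and 5 lower, against 11.5% of all genes (5.97% higher and 5.48% lower). The lists were chosen with earlier results known, and the count fell to 5 without control replicate 1 and 7 without control replicate 2. Over all genes tested, these fits gave 275 DEGs of 16708 and 300 of 16698.

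**Figure D4:**
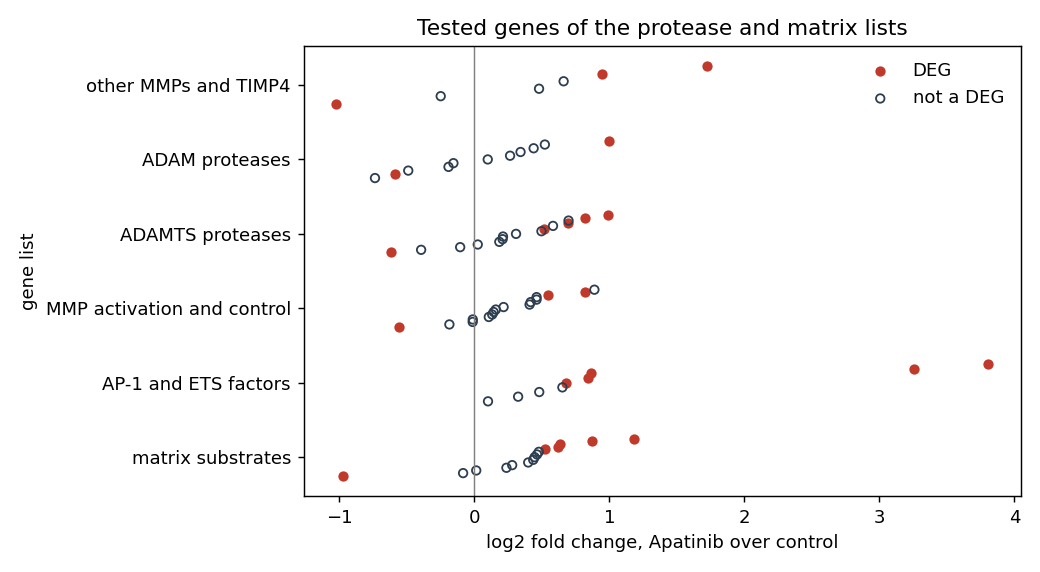
Log2FC (Apatinib over control) of each tested gene on the 6 lists described, 1 point per gene. Filled red points are DEGs and open points are not. FOS and FOSB lie above 2, and most other points lie between -1 and 1.2.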

How the data were processed

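RNA sequencing of SW872 cells, 3 Apatinib and 3 control replicates grouped by their labels, was analysed. The authors deposited gene counts, whole numbers without normalization, and FPKM values per replicate. The submitters' processing notes name CASAVA, STAR 2.7.1a and build hg19. The counting program and annotation are not given in the sources used here. No coordinates of the hg19 files were used. A column headed with a control's label among the FPKM values of Apatinib replicate 1 was left out (1 column).

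In R 4.3.3, edgeR 4.0.16 (filterByExpr, TMM, quasi-likelihood F test, all 6 libraries) was fitted to 16290 of 57773 genes, with Benjamini-Hochberg adjustment over these genes. Fold changes and DEG labels of members come from this fit and are given as a description, since the members were chosen with this comparison known. The standard errors were the size of the log2FC divided by the square root of the F statistic, so they restate that statistic. The members and gene lists were chosen with earlier results of these data known. Named genes were the members, the 3 largest DEGs in each direction on each list, and the 3 nearest profiles (log2 CPM, prior count 2). The nearest tested genes on the chromosome, the tested other MMPs that were not DEGs, COL1A1 and the genes that missed the fold limit alone were named after their values were seen. The scripts were tested on simulated data. Alternatives were DESeq2 1.42.0, RLE scaling, no filter on low counts (a total of at least 1), at least 10 counts in every library, a replicate block, controls 1 and 2 summed, limma 3.58.1 on log2(FPKM + 1) or log2(FPKM + 0.1) with a mean FPKM above 0.5, an FDR limit alone, and leaving out each replicate. Protein sequences were not used. The genes of 1 list entered the totals over the 7 lists but are not reported here.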

Additional observations from a re-analysis of the deposited data

How the results depend on the processing

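The number of DEGs depended most on the replicates. It was 1866 with all replicates, 292 with controls 1 and 2 summed, 796 with limma on log2(FPKM + 1), 810 with limma on log2(FPKM + 0.1), and between 275 and 2594 with 1 replicate left out. The share of DEGs that were higher was 52.1%, and 70.9%, 69.8% and 71.4% in the first 3 of these alternatives. It was 47.3% with the replicate block, 48.7% with DESeq2, and between 42.5% without control replicate 3 and 71.7% without control replicate 2. On the 7 lists, 25 DEGs became 7 with controls 1 and 2 summed, 13 with limma on either FPKM scale, and 5 to 28 with 1 replicate left out. The number of members that met the DEG criteria was 2, against 1 with DESeq2, with controls 1 and 2 summed and with limma on either FPKM scale, 3 with the FDR limit alone, and 1 to 3 with 1 replicate left out. MMP16 was below the FPKM minimum in limma. The log2 fold change of MMP17 was 1.40 on log2(FPKM + 1) and 1.91 on log2(FPKM + 0.1), and that of MMP1 was -0.30 on log2(FPKM + 1). These fits changed the tool, the unit and the added constant together, and the part of each was not tested. No member with a DEG call changed its sign, and the median of the members stayed between 0.07 and 0.28 with 1 replicate left out. The replicate numbers did not pair the libraries. The correlations of same-numbered deviations from the group means were -0.259, 0.0808 and -0.220, and 0 of the 3 replicates of either group were best matched by their own number. The fit with the replicate number as a block gave 2215 DEGs and again 2 members. MMP3, at 2 to 7 counts, was below the filter on low counts.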
